A study of Mus musculus with 16 samples.

Results

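Unexpanded conventional T cells were cells of day 14 liver tumours whose receptor was found in no other cell of the same library. They were chosen from single-cell T cell receptor (TCR) tables by clonotype size. A cell had to carry a high-confidence productive TRA chain and TRB chain, the alpha and the beta chain of the receptor, and the chain with the most UMIs (unique molecular identifiers, which count captured molecules) stood for each. Cells that join TRAV11 to TRAJ18, the alpha chain of invariant natural killer T cells, were left out. A clonotype was the same V segment, J segment and CDR3 nucleotides of both chains within 1 library, and an unexpanded cell was the only cell of its clonotype. This gave 1044 of the 2824 conventional paired cells of day 14, in a series with 5908 cells that carry a receptor chain.

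The tumours grew from Hepa1-6 cells, a mouse hepatoma line, injected with Matrigel into the left liver lobe of C57BL/6 mice. KO mice were CD4creMatr3fl/fl, and CON mice were CD4creMatr3WT/WT. Both genotypes thus carry Cre recombinase under the Cd4 promoter, which is active in developing thymocytes, so that CD8 T cells pass through its activity as well as CD4 T cells. Matr3 codes for matrin 3, an RNA- and DNA-binding protein of the nucleus. Tumours were taken at day 14 or day 5, and each of the 4 groups (KO and CON at day 14, KO and CON at day 5) has 2 TCR libraries. Whether both libraries of a group are from different mice is not given in the labels, so each p-value measures only the spread between libraries. The contig tables neither measure Matr3 nor tell CD4 from CD8 T cells.

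Each developing T cell builds its receptor by joining V, D and J segments for the beta chain and V and J segments for the alpha chain, with bases trimmed and added at the joints. The third complementarity-determining region, CDR3, spans the joint and touches the presented peptide. A naive cell usually carries a receptor of its own, whereas a cell that has met its antigen divides into a clone of cells with identical receptors. A cell seen once in a sample can therefore be a cell that has not divided or 1 cell of a clone whose other cells were not captured, and the contig tables cannot tell these apart.

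The sequences found repeatedly among unexpanded cells show what the term holds. A total of 3 TRB chains, defined by V, J and CDR3 amino acids, occurred in unexpanded cells of 3 or more of the 8 libraries, and their CDR3 nucleotides are printed 5′ to 3′ from the deposited contigs, with the bases at which the forms of 1 chain differ in capitals. The first joins TRBV5 to TRBJ2-7 in a short CDR3 of 11 residues, present in 6 unexpanded cells of all 4 day 14 libraries and paired with several alpha chains, of which TRAV7-6 joined to TRAJ22 occurred in 2 cells.
TRBV5 TRBJ2-7, KO replicate 1 and CON replicate 1 at day 14: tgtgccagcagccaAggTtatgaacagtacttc
TRBV5 TRBJ2-7, KO replicate 2 at day 14: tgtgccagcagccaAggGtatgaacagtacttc
TRBV5 TRBJ2-7, CON replicate 2 at day 14: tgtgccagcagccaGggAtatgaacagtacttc
TRBV5 TRBJ2-7, CON replicate 1 at day 14: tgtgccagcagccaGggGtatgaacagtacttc
The second joins TRBV19 to TRBJ1-3 with 14 residues, and was in 5 unexpanded cells of 4 libraries, of which 1 is a day 5 library.
TRBV19 TRBJ1-3, KO replicate 2 and CON replicate 2 at day 14: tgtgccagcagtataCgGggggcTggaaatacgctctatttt
TRBV19 TRBJ1-3, KO replicate 1 at day 14: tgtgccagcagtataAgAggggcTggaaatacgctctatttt
TRBV19 TRBJ1-3, KO replicate 2 at day 14: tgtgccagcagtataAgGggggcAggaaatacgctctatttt
TRBV19 TRBJ1-3, KO replicate 2 at day 5: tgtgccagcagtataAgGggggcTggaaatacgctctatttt
The third joins TRBV13-1 to TRBJ2-3 with 12 residues, and was in 3 unexpanded cells of 3 day 14 libraries.
TRBV13-1 TRBJ2-3, KO replicate 2 and CON replicate 1 at day 14: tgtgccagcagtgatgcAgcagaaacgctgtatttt
TRBV13-1 TRBJ2-3, KO replicate 1 at day 14: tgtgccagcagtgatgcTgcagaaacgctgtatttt
The first 2 chains were encoded by 4 nucleotide forms each and the third by 2, so the same amino acid chain was reached by different joints.

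Of the conventional cells at day 14, 42.8% and 47.0% were unexpanded in the KO libraries (197 of 460 and 254 of 541 cells), against 32.5% and 32.5% in the CON libraries (374 of 1150 and 219 of 673 cells). The share falls as more cells are sequenced, and the CON libraries held more cells. At an equal number of 261 conventional cells the expected shares were 49.2% and 55.2% in KO and 45.5% and 43.7% in CON. Both KO libraries lay above both CON libraries at either depth, and the gap was narrower at equal depth. At day 5 the shares at 261 cells were 95.9% and 96.6% in KO and 94.0% and 85.6% in CON, above every day 14 library. These shares are set by the clonotype size that chose the cells and are a description with no test. The other 1780 conventional cells of day 14 fell into 287 expanded clonotypes, of which 130 held 2 cells, so small clones were common just above the limit of 1 cell.

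The unexpanded cells carried the chains of conventional alpha beta T cells. None of the 1044 joined TRAV1 to TRAJ33, the alpha chain of mucosal-associated invariant T cells, which allows a share of up to 1.52%, 1.18%, 0.802% and 1.37% in KO replicate 1, KO replicate 2, CON replicate 1 and CON replicate 2; 3 such cells were found at day 5. The tables held 0 productive TRG or TRD contigs in cells and 0 immunoglobulin contigs. As the rule already required a TRA and a TRB chain in each cell, these zeros do not test the cell type. A barcode was counted as a possible doublet when it held at least 2 productive TRB chains or at least 3 productive TRA chains, and 41 of the 1044 cells met this. A total of 21 cell barcodes occurred in 2 or more libraries, and 6 unexpanded day 14 cells carried one. Of the 14 such barcodes that were conventional paired cells in both libraries, 0 had the same TRB chain.

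Some unexpanded cells shared 1 chain with another cell of their library. At day 14, 35 of 1044 had a TRB chain identical in V, J and CDR3 nucleotides to that of another cell. By library these were 3 and 8 cells in KO (1.52% and 3.15%) and 12 and 12 cells in CON (3.21% and 5.48%). At day 5 they were 4 of 1197 unexpanded cells, all in CON replicate 2. A shared TRA chain was found in 16 unexpanded cells at day 14 and 13 at day 5. A cell of an expanded clone in which another alpha chain had the most UMIs would be counted as unexpanded, and whether the 35 cells are of this kind was not tested. The TRB of 102 of the 1044 cells (9.77%) also occurred in barcodes of the same library that the authors did not call cells. At day 5 this held for 126 of 1197 unexpanded cells, so it was not particular to day 14. Among expanded cells of day 14 it held for 64.3% to 80.0% by library.

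Unexpanded cells had fewer UMIs per chain than expanded cells of the same library. The median TRB chain had 10.0 and 8 UMIs in KO and 10.0 and 9 in CON, whereas expanded cells had medians of 13 and 15 in KO and 12 and 14 in CON. The median TRA chain had 5 and 4 UMIs in KO and 4 and 4 in CON, whereas expanded cells had 6 and 5 in KO and 6 and 6 in CON. The lower value was on the unexpanded side in all 4 libraries for both chains. A TRA chain resting on 1 UMI was found in 10.7% and 15.7% of unexpanded KO cells and in 11% and 8.68% of unexpanded CON cells, and a TRB chain resting on 1 UMI in 2.54%, 2.36%, 0.802% and 0.913% in the same order. These values are a description, because clonotype size chose the cells.

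**Figure D1:**
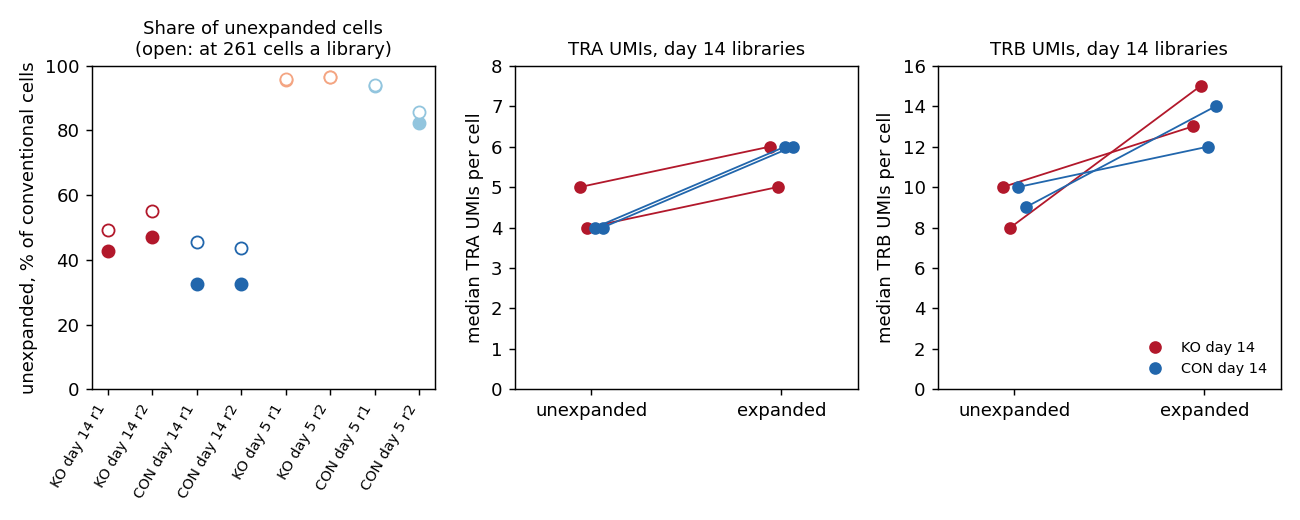
Left: unexpanded cells as a percent of the conventional paired cells of each library, as found (filled) and expected at 261 cells (open); all 4 day 14 libraries lie under all 4 day 5 libraries. Middle and right: median TRA and TRB UMIs per cell for unexpanded and expanded cells of each day 14 library, joined by a line; every line is lower on the unexpanded side.

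No measure of the CDR3 loops of unexpanded cells passed a test, by genotype or by day. With 2 libraries against 2 the smallest two-sided exact permutation p is 0.333, and with day labels permuted within genotype it is 0.0556, so neither design can reach 0.05. The mean TRA CDR3 length was 13.6 ± 0.0577 residues in KO and 13.7 ± 0.0849 in CON (SD, n = 2 each, exact p = 0.333, adjusted over 7 measures 0.778). The mean TRB CDR3 length was 13.9 ± 0.0412 residues in KO and 13.8 ± 0.000518 in CON (SD, n = 2 each, exact p = 0.333, adjusted 0.778). Both KO libraries had longer TRB loops and shorter TRA loops than both CON libraries, by 0.0842 and 0.139 residues on average. TRB CDR3 of 16 or more residues made up 12.7% and 11% of unexpanded KO cells and 9.63% and 9.13% of unexpanded CON cells. At day 5 this share was 9.32% and 13.5% in KO, and both CON libraries lay between these values. Short TRB CDR3, of at most 12 residues, did not separate the genotypes at day 14. They made up 18.3% and 14.2% of unexpanded KO cells, and both CON libraries lay between these values. Clonotypes of 2 cells, just outside the limit and counted once each, had a mean TRB CDR3 length of 13.5 and 13.7 residues in KO and 13.8 and 14.1 in CON.

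The middle of the TRB CDR3 lies over the peptide. Its mean Kyte-Doolittle hydropathy, a scale on which higher values are more water-repelling, was -1.01 ± 0.0440 in KO and -1.08 ± 0.00744 in CON (SD, n = 2 each, exact p = 0.333, adjusted 0.778). By day it was -1.04 ± 0.0469 at day 14, against -1.10 ± 0.0578 at day 5 (SD over 4 libraries each; exact p = 0.278, adjusted 0.875). Hydrophobic residues at both positions 6 and 7 of the TRB CDR3, counted from the first cysteine, are a feature described for self-reactive T cells. They were found in 1.2 ± 0.565% of unexpanded cells at day 14, against 1.22 ± 0.271% at day 5 (SD over 4 libraries each; exact p = 1.00), which is 12 cells at day 14 and 15 at day 5. A cell can carry more than 1 productive TRA chain, since rearrangement of TRA goes on at both alleles. Such cells made up 10.7 ± 2.85% in KO and 11.8 ± 0.0760% in CON at day 14 (SD, n = 2 each, exact p = 1.00).

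The UMIs and lengths of the chains gave no call between days either. The median TRB UMIs averaged 9.25 ± 0.957 at day 14, against 10.5 ± 1.73 at day 5 (SD over 4 libraries each; exact p = 0.5, adjusted 0.875). The median TRA UMIs averaged 4.25 ± 0.5 at day 14, against 3.75 ± 0.957 at day 5 (SD over 4 libraries each; exact p = 0.667, adjusted 0.933). TRA CDR3 length averaged 13.6 ± 0.0996 residues at day 14, against 13.6 ± 0.135 at day 5 (exact p = 0.833). TRB CDR3 length averaged 13.8 ± 0.0542 residues at day 14, against 13.9 ± 0.0877 at day 5 (exact p = 0.167, adjusted 0.875). Of the 7 measures, none had libraries of day 14 that all lay outside the range of day 5.

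Unexpanded cells of day 14 used 47 TRAV names after the copies of the duplicated alpha locus were merged, 43 TRAJ, 22 TRBV and 12 TRBJ names. The most used TRAV were TRAV16 with 5.93 ± 1.36% and TRAV12-2 with 5.85 ± 1.55% of a library's unexpanded cells, and the most used TRAJ were TRAJ27 with 6.95 ± 2.08% and TRAJ22 with 6.50 ± 2.37% (SD, n = 4). Among beta segments TRBV3 led with 14.0 ± 1.81%, and TRBJ2-7 with 22.0 ± 0.859%. The TRBD2 segment lies downstream of the TRBJ1 cluster and cannot join it, and 0 of the 82 chains called TRBD2 were joined to TRBJ1.

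The first comparison asked whether segment use of unexpanded cells differed between KO and CON tumours at day 14. Counts of cells were fitted over all 82 segments with 40 or more unexpanded cells in the 8 libraries, and 0 passed an adjusted p of 0.05 (percent called 0, edgeR quasi-likelihood test). Without adjustment 9 of 82 segments (11.0%) had a p under 0.05 in edgeR, and DESeq2 called 0 after adjustment. The shares of both KO libraries lay outside those of both CON libraries for 39 of 82 segments (47.6%), against 28 of 82 (34.1%) between KO and CON at day 5. The TRBV segments had 15 of 19 apart at day 14 and 7 of 19 at day 5, so genotypes were ordered most often for the beta V segments, with no test of that count. Random labels on 2 libraries against 2 set a segment apart with a probability of 0.333. Shares within a segment type also depend on each other, so the segments are not independent counts.

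TRBV26 had the smallest p. It made up 1.52% and 1.18% of unexpanded cells in KO and 4.01% and 5.94% in CON. The difference was -1.79 ± 0.42 on the log2 scale (SE, edgeR adjusted p = 0.124). Each SE of a fold change is derived from the F value and can be smaller than counting error. Both KO libraries were low and the day 5 libraries lay between, at 2.15% and 2.38% in KO and 3.73% and 2.43% in CON. TRBV12-2 was at 8.12% and 9.45% in KO and 4.55% and 5.02% in CON (log2 fold change 0.90 ± 0.31, edgeR adjusted p = 0.343). TRBV19 was at 5.08% and 4.33% in KO and 8.82% and 6.85% in CON (log2 fold change -0.79 ± 0.33, edgeR adjusted p = 0.343). The deposited name TRBV12-2+TRBV13-2, a pair of segments counted apart from either, was at 9.64% and 10.6% in KO and 7.22% and 5.02% in CON (0.67 ± 0.27, edgeR adjusted p = 0.343; 1.02 without CON replicate 1). Groups did not overlap for any of these 4 beta segments, which were picked by p from the same libraries. Over all 82 segments, 39 (47.6%) did not overlap.

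Among alpha segments TRAV9-1 was higher in KO, at 6.60% and 5.12% against 2.67% and 3.20% in CON (log2 fold change 1.00 ± 0.30, edgeR adjusted p = 0.343). TRAV7-4 was at 2.03% and 1.57% in KO and 4.55% and 3.65% in CON (log2 fold change -1.23 ± 0.37). TRAV7-6 was at 0.508% and 1.18% in KO and 4.55% and 1.37% in CON (-1.88 ± 0.74), where CON replicate 1 alone stood high. TRAV8-2 was at 0% and 0.394% in KO and 1.6% and 2.74% in CON, which is 0 and 1 cells against 6 and 6 cells. Its fitted log2 fold change of -2.96 ± 1.24 rests on that single KO cell. The edgeR adjusted p of the last 3 segments was 0.343 each, and none of the 8 segments passed.

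**Figure D2:**
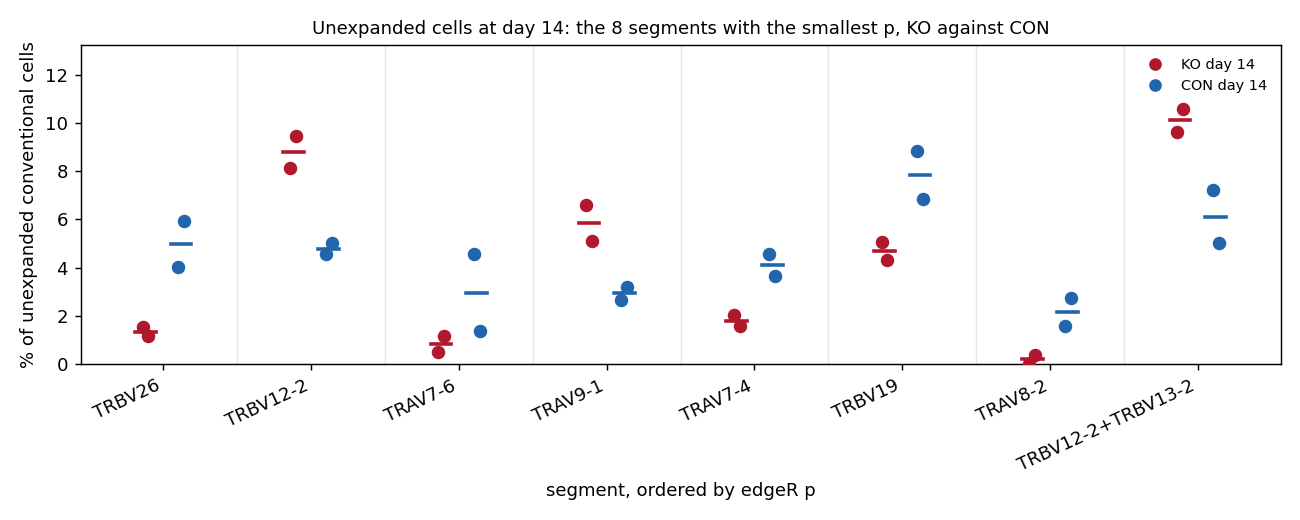
Percent of each day 14 library's unexpanded conventional cells with each of the 8 segments of smallest p between KO and CON (dots are libraries, lines are means of 2). The dots of the genotypes do not overlap for any segment shown, and none passed the adjusted threshold. The segments were picked by p from these same libraries, and 39 of all 82 segments (47.6%) did not overlap.

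The segments were also read in lists by number, cluster or family. TRAJ2 to TRAJ18, which lie far from the V segments and are reached in later rounds of alpha rearrangement, made up 28.4% and 22.0% of unexpanded cells in KO and 23.5% and 22.8% in CON. TRAJ21 to TRAJ39 made up 49.2% and 52.4% in KO and 52.1% and 53.9% in CON, and TRAJ40 to TRAJ58, nearest the V segments, 22.3% and 25.6% in KO and 24.3% and 23.3% in CON. For these 3 lists the median log2 fold changes of the 6, 12 and 7 tested members were 0.14, -0.19 and 0.17, against -0.00198 over all 82 segments, and 0 members passed. Against day 5 the medians were 0.17, -0.027 and -0.067, against -0.0452 over all segments, again with 0 members past the threshold. The mean shares of the 3 lists were 24.2%, 51.9% and 23.9% at day 14, against 23.3%, 51.3% and 25.4% at day 5.

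TRAV1 to TRAV3 held 5.58% and 7.48% of KO and 7.49% and 6.85% of CON unexpanded cells, and TRAV16 to TRAV21 held 7.61% and 6.69% of KO and 7.75% and 12.8% of CON cells. The Vbeta8 family (TRBV13 members with the joint name) held 22.8% and 20.9% in KO and 19.5% and 16.9% in CON, against 19.4% and 24.2% in KO and 24.1% and 22.6% in CON at day 5. The Vbeta5 family (TRBV12-1 and TRBV12-2) held 13.2% and 16.1% in KO and 7.22% and 10.5% in CON, against 9.68% and 11.5% in KO and 10.5% and 7.28% in CON at day 5. Its 2 tested members had log2 fold changes of 0.68 for TRBV12-1 and 0.90 for TRBV12-2 between KO and CON at day 14, and 0 passed. The Jbeta1 cluster held 29.4% and 34.3% in KO and 29.7% and 30.6% in CON, and the Jbeta2 cluster the remaining 70.6% and 65.7% in KO and 70.3% and 69.4% in CON. For these 6 lists, in the order given, the 1, 1, 3, 2, 6 and 6 tested members had median log2 fold changes of 0.34, -0.46, 0.29, 0.79, 0.098 and -0.099 between KO and CON at day 14. The medians of the TRAV lists are those of TRAV3-3 and TRAV16 alone, and as both names merge copies spread over the duplicated locus, these lists do not stand for its ends. Between day 14 and day 5 the medians were 0.52, 0.2, -0.12, 0.22, -0.15 and 0.024. None of the tested members of these lists passed the adjusted threshold by genotype or by day.

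The second comparison asked how far unexpanded cells of day 14 resembled those of day 5. Of 82 segments, 1 passed an adjusted p of 0.05 (percent called 1.22, edgeR), and 8 (9.76%) had an unadjusted p under 0.05. All 4 day 14 libraries lay outside the day 5 range for 6 of 82 segments (7.32%). The segment that passed was TRBV3, a beta V segment at chromosome 6, 41048394 to 41048824 (GRCm38). TRBV3 made up 13.2% and 12.2% of unexpanded cells in KO and 14.2% and 16.4% in CON at day 14, against 8.96% and 8.73% in KO and 7.80% and 8.09% in CON at day 5. Every day 14 library exceeded every day 5 library. The difference was 0.71 ± 0.13 on the log2 scale (SE derived from the F value, edgeR adjusted p = 0.0118). The same fit gave no interaction of genotype and day past the threshold for any of 82 segments (0% called, with 4 or 4.88% at an unadjusted p under 0.05 in edgeR and 0 in DESeq2).

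The TRBV3 call depended on the tool and on single libraries. DESeq2 gave the same size, 0.73, with an adjusted p of 0.741. The edgeR adjusted p was 0.0869 without KO replicate 1 of day 14, 0.0570 without CON replicate 2 of day 14, 0.0688 without KO replicate 1 of day 5 and 0.0600 without KO replicate 2 of day 5, with log2 fold changes from 0.67 to 0.78 over all libraries left out in turn. In another fit the unexpanded cells near an expanded TRB, as described further on, were left out. Here expanded TRB of a cell's own day 14 library counted as well as those of other day 14 libraries. The log2 fold change of TRBV3 was then 0.56 with an edgeR adjusted p of 0.126. The expanded TRB all came from day 14, where 23.7% of expanded clonotypes carried TRBV3, and only day 14 cells could match their own library. The filter by its make thus favours the loss of TRBV3 cells at day 14, and no conclusion is drawn from the lower value.

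The other segments of smallest p between days did not pass. TRAJ26 was at 0.508% and 2.36% in KO and 3.48% and 0.913% in CON at day 14, against 3.94% and 3.97% in KO and 6.10% and 5.39% in CON at day 5 (log2 fold change -1.24 ± 0.34, edgeR adjusted p = 0.0899). Its fold change rested on single libraries, at -2.01 without KO replicate 2 of day 14 (edgeR adjusted p = 0.0443), -1.95 without CON replicate 1 of day 14 (edgeR adjusted p = 0.0209) and -0.95 without KO replicate 1 of day 14. TRBV31, the one mouse beta V segment that lies downstream of the constant regions and joins by inversion, was at 2.03% and 2.36% in KO and 4.28% and 4.11% in CON at day 14, against 7.17% and 5.56% in KO and 5.42% and 4.58% in CON at day 5 (-0.87 ± 0.25, edgeR adjusted p = 0.0899). TRAV9-1 was at 4.4 ± 1.81% at day 14, against 1.98 ± 0.354% at day 5 (SD over 4 libraries each; log2 fold change 1.04 ± 0.25, edgeR adjusted p = 0.0899). These 3 segments were ordered by day in all 8 libraries, but were picked by p from the same libraries. Over all 82 segments, 6 (7.32%) did not overlap between days.

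TRAJ21 was at 4.36 ± 0.818% at day 14, against 2.48 ± 0.534% at day 5 (log2 fold change 0.86 ± 0.24, edgeR adjusted p = 0.172), and TRAJ27 at 6.95 ± 2.08% and 4.43 ± 0.817% (0.57 ± 0.26, edgeR adjusted p = 0.455), each with all day 14 libraries above all day 5 libraries. TRBV12-2 (0.60 ± 0.24, edgeR adjusted p = 0.345) and TRAV8-2 (-1.63 ± 0.71, edgeR adjusted p = 0.426) overlapped between days. These segments too were picked by p from the same libraries. The use of chains with 2 or more UMIs raised the number of segments past the threshold to 5, namely TRBV3, TRAV9-1 (1.35), TRAJ26 (-1.15), TRBV31 (-1.01) and TRBJ1-6, in a fit over 75 segments.

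**Figure D3:**
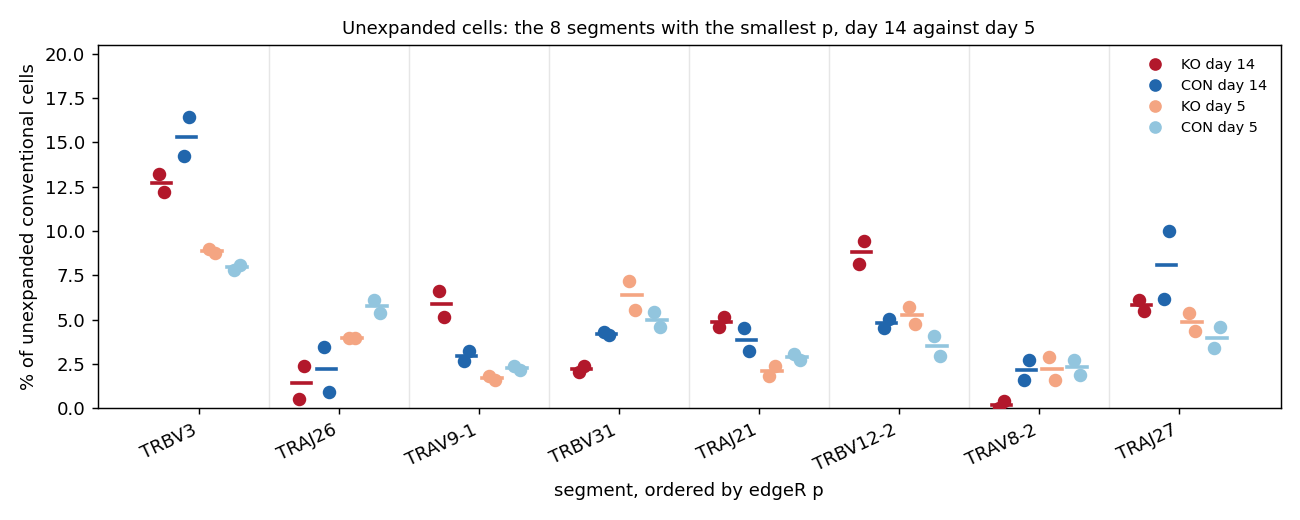
Percent of each library's unexpanded conventional cells with each of the 8 segments of smallest p between day 14 and day 5 (dots are libraries, lines are means of 2). TRBV3, at 12.2% to 16.4% at day 14 and 7.80% to 8.96% at day 5, is the only one past the adjusted threshold. The segments were picked by p from these same libraries, and 6 of all 82 segments (7.32%) did not overlap between days.

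Segment use as a whole was compared between pairs of libraries with the Morisita index, which is near 1 for libraries drawn from 1 common pool and does not depend on cell number to first order. For TRBV the 16 pairs of different days averaged 0.958, against 0.984 for the 6 pairs within day 14 and 0.984 for the 6 pairs within day 5 (exact permutation p = 0.0556, the smallest the design allows, adjusted over 4 segment types 0.111). For TRAJ the averages were 0.981 between days, 0.989 within day 14 and 1.02 within day 5 (exact p = 0.0556, adjusted 0.111). For TRAV they were 0.998, 1.01 and 1.01 (exact p = 0.111, adjusted 0.148), and for TRBJ 1.01, 1.00 and 1.01 (exact p = 0.778). All these averages lay between 0.958 and 1.02, and no segment type passed 0.05.

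Expanded clonotypes of day 14, each counted once and set against day 5 unexpanded cells, had lower mean indices, given with no test, of 0.881 for TRAV, 0.799 for TRAJ, 0.770 for TRBV and 0.972 for TRBJ. Counted by cells, expanded clonotypes gave 0.433, 0.459, 0.573 and 0.792 in the same order. Counting by cells puts a whole clone, of up to 111 cells in CON replicate 2, into 1 segment of each type. This by itself lowers the index, so the values by cells do not measure segment preference. Between genotypes at day 14, the TRBV index was 1.04 for the pair of KO libraries and 1.01 for the pair of CON libraries, against 1.00, 0.971, 0.957 and 0.928 for the 4 pairs of a KO and a CON library. For TRAJ, pairs within a genotype at 0.986 and 0.975 lay inside the range of mixed pairs, 0.947 to 1.03.

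**Figure D4:**
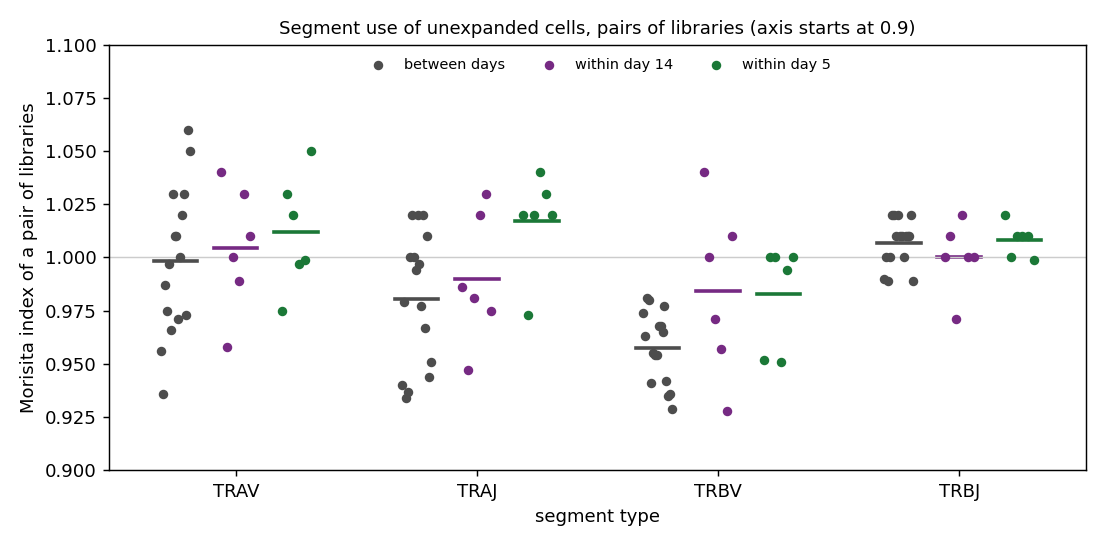
Morisita index of segment use between pairs of libraries of unexpanded cells, by segment type (dots are pairs, lines are means; a library enters several pairs). For TRBV the pairs between days average 0.958 and the pairs within day 14 and within day 5 average 0.984 each.

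TRBV3 cells at day 14 differed from those at day 5 in the alpha J segment they were paired with, a pattern chosen after its values were seen and given with no test. Of unexpanded TRBV3 cells at day 14, 26 of 146 (17.8%) carried TRAJ27, against 2 of 100 (2%) at day 5. By library the day 14 shares were 15.4% and 22.6% in KO (4 of 26 and 7 of 31 cells) and 17% and 16.7% in CON (9 of 53 and 6 of 36). The day 5 shares were 8% and 0% in KO (2 of 25 and 0 of 22 cells) and 0% and 0% in CON. These shares rest on few cells. Every day 14 library exceeded every day 5 library. Unexpanded cells with other beta V segments carried TRAJ27 in 5.01% of 898 cells at day 14 and 4.65% of 1097 at day 5. Among expanded clonotypes of day 14, each counted once, the TRAJ27 share was 29.4% of 68 with TRBV3 and 13.2% of 219 without.

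An aspartate and a tryptophan at positions 6 and 7 of the TRB CDR3 recurred in TRBV3 cells. They were found in 21 of 146 unexpanded TRBV3 cells at day 14 (14.4%) and 11 of 100 at day 5 (11%), against 4.01% and 4.19% of unexpanded cells with other V segments. Expanded TRBV3 clonotypes of day 14 carried them in 20 of 68 (29.4%). Of the 21 day 14 cells, 13 also carried TRAJ27, against 1 of the 11 day 5 cells. A set of these CDR3 is printed with the codons of the residue pair in capitals, and each was paired with TRAJ27. The pair had the same codons across lengths and genotypes, always joined to segments of the Jbeta2 cluster. No germline D sequence was compared, so whether the D segment encodes these codons was not tested.
TRBV3 TRBJ2-7 with TRAV9-2, KO replicate 2 and CON replicate 1: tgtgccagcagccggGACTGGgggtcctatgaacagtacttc
TRBV3 TRBJ2-2 with TRAV8-1, KO replicate 1: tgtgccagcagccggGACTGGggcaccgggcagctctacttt
TRBV3 TRBJ2-2 with TRAV9-1, KO replicate 2: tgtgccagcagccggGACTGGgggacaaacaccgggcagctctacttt
TRBV3 TRBJ2-4 with TRAV3-3, CON replicate 1: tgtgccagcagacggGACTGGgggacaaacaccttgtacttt
TRBV3 TRBJ2-1 with TRAV3-3, CON replicate 2: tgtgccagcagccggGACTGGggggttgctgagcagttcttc
The 146 unexpanded TRBV3 cells of day 14 held 140 distinct TRB chains and 36 TRAV names, so the share of TRBV3 was not carried by 1 chain.

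Unexpanded cells of day 14 had TRB chains close to those of expanded clonotypes in other day 14 libraries more often than day 5 cells did. A TRB was called near when it had the same V and J segments and CDR3 length as an expanded TRB of another day 14 library and differed from it by at most 1 residue. Averaged over the other day 14 libraries, 2.71% and 3.67% of unexpanded cells were near in KO and 1.6% and 4.57% in CON at day 14, against 1.08% and 0.298% in KO and 0.169% and 0.0674% in CON at day 5. The mean was 3.14 ± 1.27% at day 14, against 0.402 ± 0.458% at day 5 (SD over 4 libraries each), with every day 14 library above every day 5 library. This measure was chosen after the data were seen and has no test, and the day 5 value is an average over 4 libraries and the day 14 value over 3. Of those 3, 1 is the second library of the same group, whereas day 5 cells were set against no library of their own group. Without the cells whose TRB was also in another cell of their library, the lowest day 14 library was at 0.83% and the highest day 5 library at 1.08%, so that the days then overlapped.

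Near any other day 14 library's expanded TRB were 67 of 1044 unexpanded cells at day 14 (6.42%), 34 of 451 in KO and 33 of 593 in CON, against 15 of 1197 at day 5 (1.25%). TRBV3 gave 20 of these 67 cells, out of 146 unexpanded TRBV3 cells, and TRBV5 gave 15 out of 52. Without TRBV3 cells the means were 2.68% at day 14 and 0.292% at day 5. The likeness was also present among unexpanded cells alone. Pairs of unexpanded cells from different libraries had TRB chains within 1 residue in 205 of every 1000000 possible pairs within day 14 (171 to 244 over 6 library pairs), against 40.7 between days and 32.1 within day 5. These rates rest on 81 alike pairs within day 14, 50 between days and 18 within day 5, and a cell can enter several pairs. Cells whose TRB was also in another cell of their library were kept, and the rates have no test.

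**Figure D5:**
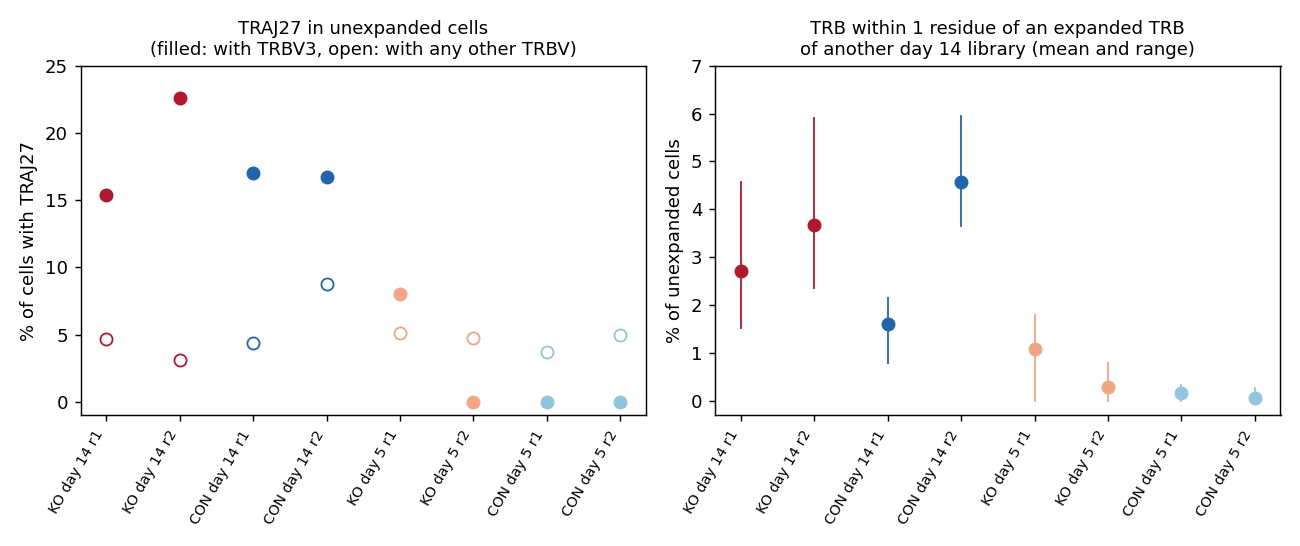
Left: percent of unexpanded cells with TRAJ27 among cells with TRBV3 (filled) and among cells with other beta V segments (open), by library. Right: percent of unexpanded cells whose TRB is within 1 residue of an expanded TRB of another day 14 library (dot, mean over those libraries; line, lowest to highest); the 4 day 14 means lie between 1.6% and 4.57%, above the 4 day 5 means.

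Whole receptors, with both chains identical in V, J and CDR3 amino acids, were also shared between libraries. Of 14 receptors found in 2 or more libraries, 0 were in a day 5 library and 12 included an unexpanded day 14 cell. These 12 took in 19 of the 1044 unexpanded cells (1.82%), 4 and 6 in KO and 4 and 5 in CON, against 0 of 1197 at day 5, which allows a share of up to 0.251%. For 9 of the 12, the receptor of the unexpanded cell was an expanded clonotype in another library, and 9 were found in both KO and CON libraries. The other 3 were shared by the libraries of 1 genotype, which may or may not be from different mice. The 19 cells had 19 distinct barcodes, of which 0 were in another library, and 1 was a possible doublet. This count too was chosen after the data were seen.

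The receptors with most libraries or largest clones show the range. The receptor of TRAV9-1, TRAJ23, TRBV3 and TRBJ2-7 was found in all 4 day 14 libraries, in 2 and 1 cells in KO and 11 and 1 cells in CON, so it was unexpanded in KO replicate 2 and CON replicate 2 and expanded in the other 2. All 15 cells had 1 nucleotide form of each chain, which is printed in lower case because no base varies.
TRA, TRAV9-1 TRAJ23: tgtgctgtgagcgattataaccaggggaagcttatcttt
TRB, TRBV3 TRBJ2-7: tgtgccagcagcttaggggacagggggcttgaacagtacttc
The receptor of TRAV6-7, TRAJ34, TRBV19 and TRBJ1-3 was in 1 unexpanded cell each of KO replicate 1, KO replicate 2 and CON replicate 2. It had 3 combinations of TRA and TRB nucleotides, and its 2 TRB forms are the first 2 printed above for this join. Its TRA forms differed at the base in capitals.
TRA, TRAV6-7 TRAJ34, KO replicate 2: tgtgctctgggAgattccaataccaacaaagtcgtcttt
TRA, TRAV6-7 TRAJ34, KO replicate 1 and CON replicate 2: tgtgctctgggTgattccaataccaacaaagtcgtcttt
A receptor of TRAV7-6, TRAJ22, TRBV5 and TRBJ2-7 was a clone of 87 cells in CON replicate 1 and a single unexpanded cell in CON replicate 2. A receptor of TRAV6-6, TRAJ43, TRBV13-1 and TRBJ1-1 held 10 cells in KO replicate 2 and 35 cells in CON replicate 2, of which 1 was an unexpanded cell with its own nucleotide form. Of the 12 receptors with an unexpanded cell, 9 had 2 or more nucleotide forms and 3 had 1 form.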

How the data were processed

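The 8 TCR libraries were analysed, and the 8 single-cell RNA libraries were not analysed here. The deposited tables list assembled contigs with raw counts of UMIs and reads, whole and unscaled per the file headers. The deposited contig length was not compared. The submitters' processing notes name Seurat 4.0.0, R 4.1.2, Cell Ranger 3.1.0, CASAVA 1.8 and the build GRCm38 (mm10), with no role given. All contig read numbers were even, so UMIs and not reads were compared.

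The libraries held 474 to 1404 cells with a chain and 7683 to 31936 UMIs in chains. Limits for a count of 0 are 3 counts of the total and cover counting error only. Names of the duplicated TRAV copies were merged, from 88 to 47 names. Segment positions are those of RefSeq for this build. Hydropathy left out 4 residues at either end of the CDR3. The share at 261 cells, the smallest library, was computed exactly. Cells per segment were tested with the quasi-likelihood F test of edgeR 4.0.16 in R 4.3.3 over all 8 libraries, with a 4-group model, the number of unexpanded cells as offset, a minimum of 40 cells and Benjamini-Hochberg adjustment over the 82 segments. The SE is the absolute log2 fold change divided by the square root of F. It is nominal and can be smaller than counting error, and the p-values do not follow from it. Between KO and CON at day 14, TRAV7-4 (-1.23 ± 0.37) had an unadjusted edgeR p of 0.0232 and TRBV12-2 (0.90 ± 0.31) of 0.0105. The 7 measures and the Morisita index were tested by exact two-sided permutation (6 relabelings between genotypes, 36 between days). Alternatives were TMM factors, DESeq2 1.42.0, no filter, a replicate block, other chain, doublet and clonotype rules, and each library left out.

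Segments named are those past the threshold, or the 8 of smallest p. TRB chains named are those in unexpanded cells of 3 or more libraries. The cells, lists, measures and tests were chosen with earlier results of these data known.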

Additional observations from a re-analysis of the deposited data

Results flagged for a closer look

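The TRA chain of unexpanded cells had a median of 5 UMIs in KO replicate 1 of day 14, against 4 in the other 3 day 14 libraries, a gap as wide as the whole range. TRAJ27 made up 10.0% of the unexpanded cells of CON replicate 2 at day 14, against 5.51% to 6.15% in the other 3 day 14 libraries. Among 64 sets of values examined for a library that stands apart, these 2 did, and chance alone flags about 1 in 20. The report's comparisons did not use barcodes that the authors did not call cells. In these, 102 of the unexpanded day 14 cells (9.77%) had their TRB chain in a barcode of the same library, whereas 8 had it in such a barcode of another library. Among the 1197 unexpanded day 5 cells the counts were similar, at 126 and 2.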

How the results depend on the processing

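No segment was called between KO and CON at day 14, or for the interaction, under any alternative tried. Between days the number of segments past the threshold was 1 in edgeR, 0 in DESeq2 and 5 with chains of 2 or more UMIs. It was 0 without cells near an expanded TRB of any day 14 library, their own included (chosen after seeing the data). That filter by its make favours the loss of TRBV3 cells at day 14. The calls also changed as single libraries were left out. The log2 fold change of TRAJ26 ran from -2.01 to -0.95 as each library was left out. The likeness of TRB chains to expanded ones, a difference of 2.74 percentage points between day 14 and day 5, was 1.28 for identical CDR3 and 2.35 to 3.31 as each library was left out.

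Small differences that no test called changed sign. Between KO and CON at day 14, TRA UMIs differed by -0.10 as a mean of log2 UMIs. Cells with 2 or more TRA chains differed by 0.605 points with the authors' clonotype ID and by 0.431 without cells whose TRB is in another cell. Between days, hydrophobic positions 6 and 7 differed by 0.285 points with chains of 2 or more UMIs, 0.00434 with the authors' clonotype ID and 0.00711 without cells whose TRB is in another cell. Cells with 2 or more TRA chains differed by -0.256 and -0.571 points under the last 2 of these. The TRBJ overlap differed by -0.00145 as a Bray-Curtis overlap. As each library was left out, the KO minus CON differences ran from -0.204 to 1.04 points for hydrophobic positions, -1.50 to 0.5 for TRB UMIs and -3.16 to 0.872 points for 2 or more TRA chains. The day 14 minus day 5 differences ran from -0.0648 to 0.0926 residues for TRA CDR3 length, -0.336 to 0.286 points for hydrophobic positions, -0.325 to 1.9 points for 2 or more TRA chains and -0.00338 to 0.00362 for the TRBJ overlap. The cause was not tested.

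The labels do not say whether replicate numbers mark a shared batch, and segment use of 2 libraries a group cannot settle it. Deviations of same-numbered KO and CON libraries correlated at 0.0762 over segments at day 14 and -0.00275 at day 5. Same-numbered libraries of day 14 and day 5 correlated at -0.0198 in KO and -0.316 in CON. With a replicate block TRBV3 had a log2 fold change of 0.71 with an edgeR adjusted p of 0.0170, and the block changed no call. Day 14 libraries held 197 to 374 unexpanded cells, so rare segments such as TRAV8-2 rest on few cells.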
